A study of Aspergillus nidulans with 12 samples.

Results

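This account concerns the chromatin regions that anti-FLAG antibody enriched in an Aspergillus nidulans strain carrying VeA::FLAG and not in the untagged wild type (WT). Peak centres of the 6 anti-FLAG libraries that lay up to 100 bp apart were chained into regions, and the regions with a peak in 3 of 3 VeA::FLAG libraries and in 0 of 3 WT libraries were taken. They number 427 of 15058 regions (2.84%), and 414 of the 9636 genes named in the peak lists (4.3%) are the nearest gene of at least 1 of them. A further 1478 regions had a peak in 2 of 3 VeA::FLAG libraries and no WT library, and 11088 had one in a single VeA::FLAG library. The reverse pattern, 3 of 3 WT and 0 of 3 VeA::FLAG libraries, was found in 8 regions (0.0531%). Because the rule uses the peak calls, the counts of regions and their anti-FLAG signals are a description and carry no test.

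VeA founded the velvet family of fungal transcriptional regulators, whose shared domain can bind DNA. It enters the nucleus mainly in the dark together with VelB, another velvet protein, and there meets LaeA, a methyltransferase-like regulator of secondary metabolism. The complex is known for balancing sexual against asexual development and for coordinating development with secondary metabolism. In chromatin immunoprecipitation followed by sequencing (ChIP-seq), an antibody recovers the DNA cross-linked near a protein, and a peak is a place where sequenced tags pile up over a control.

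The series holds 12 libraries from 3 strains, each with 3 anti-FLAG libraries and 1 library precipitated with anti-rabbit IgG. The VeA::FLAG strain, RJW324.3, is a single recombinant from a cross, with 3 copies of the FLAG epitope at the C terminus of the veA open reading frame and the AfriboB marker, whereas WT, RDIT9.32, has no FLAG epitope. The other tagged strain, RJW302.11, carries LaeA::FLAG and is used here only for comparison. All were grown vegetatively for 24 h at 37 °C in liquid glucose minimal medium in the dark, and the sources used here do not say that the 3 libraries of a strain came from separate cultures, so p-values measure the spread between libraries, which may be technical.

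The VeA::FLAG libraries held 1456059.5 to 1893170.5 tags and 4252 to 5783 peaks, and the WT libraries 319742 to 7974006 tags and 134 to 1831 peaks. VeA::FLAG peaks were 203, 125 to 153 and 147 bp wide in replicates 1, 2 and 3, so signals of different regions of a library refer to about the same length. Between replicates the lengths differ, and differences in signal between replicates depend on this too. Signal below is the number of tags in a peak scaled to a library total of 10000000 tags, so that 1 tag was worth 5.28 to 6.87 units in the VeA::FLAG libraries and 1.25, 8.78 and 31.3 units in WT replicates 1, 2 and 3. WT signal was given only where a WT peak was called, hence 0 of 3 WT libraries means no call and not a value of 0. The weakest peak called in WT replicate 3 had a signal of 234.56, and 316 of the 427 regions (74.0%) had all 3 VeA::FLAG signals above that. For WT replicates 1 and 2, whose weakest peaks had signals of 85.28 and 101.02, this held for all 427 regions. Peaks were also set against the strain's own IgG library, and WT IgG was higher than VeA::FLAG IgG in 360 of the 427. A signal above the weakest WT peak could therefore still go uncalled in WT, which was not tested. Leaving out WT replicate 1, 2 or 3, which can add regions but remove none, gave 438, 442 and 427 regions. Strain and IgG control differ together between the groups and cannot be told apart. Library depth also differed between libraries, with the VeA::FLAG totals inside the WT range, and its part was not tested.

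The 15 strongest regions had 13 nearest genes, of which velB, the gene of a partner of VeA, and nsdD, a regulator of sexual development, have a symbol. Regions were ordered by the lowest of their 3 VeA::FLAG signals. First was a region 806 bp upstream of the exon 1 start of AN7482 (chromosome IV, 1680442 to 1680644, 1-based coordinates of the FGSC A4 assembly), with signals of 3987, 4088 and 3393 in VeA::FLAG replicates 1, 2 and 3. All 3 libraries were high there, with replicate 3 slightly below the others. The mean IgG signal of the VeA::FLAG strain in the same peaks was 7.16. Exon 1 of AN7482 itself held a second such region, centred 165 bp after its start, with signals of 2220, 1194 and 1518 and an IgG signal of 0.

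Second was velB, which encodes the velvet protein that pairs with VeA. The region lay 443 bp upstream of the exon 1 start (chromosome VIII, 3785102 to 3785304), and the signals were 3484, 3642 and 2016, with no IgG tag in any of the 3 peaks. Replicate 3 was the low one here, and replicates 1 and 2 were close to each other. The GATA-type transcription factor gene nsdD, which is required for sexual fruiting, was ninth. Its region was intergenic, 1916 bp downstream of the start of exon 4 (chromosome VI, 1644837 to 1645039), with signals of 1205, 1447 and 2466, so that replicate 3 was the highest. Closer to that exon lay 2 further regions, 1488 and 939 bp downstream of its start, that were called in VeA::FLAG replicates 1 and 3 only.

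Of the 15 strongest regions, 6 were intergenic by the deposited annotation and only 4 lay up to 1.5 kb upstream of an exon 1 start. AN11864 had 2 of them, 2412 and 1601 bp upstream of its exon 1, with signals of 1466, 2873 and 1720 at the farther one and 1243, 1859 and 1731 at the nearer one. AN0186 (132 bp after its exon 1 start) gave 1439, 2488 and 1456, and AN1588 (395 bp after) gave 1621, 1593 and 1216. In the first of these replicate 2 stood above the others, and in the second replicates 1 and 2 were alike. The regions nearest to AN1847 and AN0280 lay beyond inner exons and had lowest signals of 1392 and 1288. A pair of regions 795 bp apart on chromosome III was assigned to AN8695 and AN8694, with lowest signals of 1161 and 1109, and both lay over 3 kb from the exon start named. AN12077, AN5283 and AN1094 completed the list with lowest signals of 1161, 1099 and 1085. None of these genes other than velB and nsdD has a symbol in the table used for names.

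**Figure D1:**
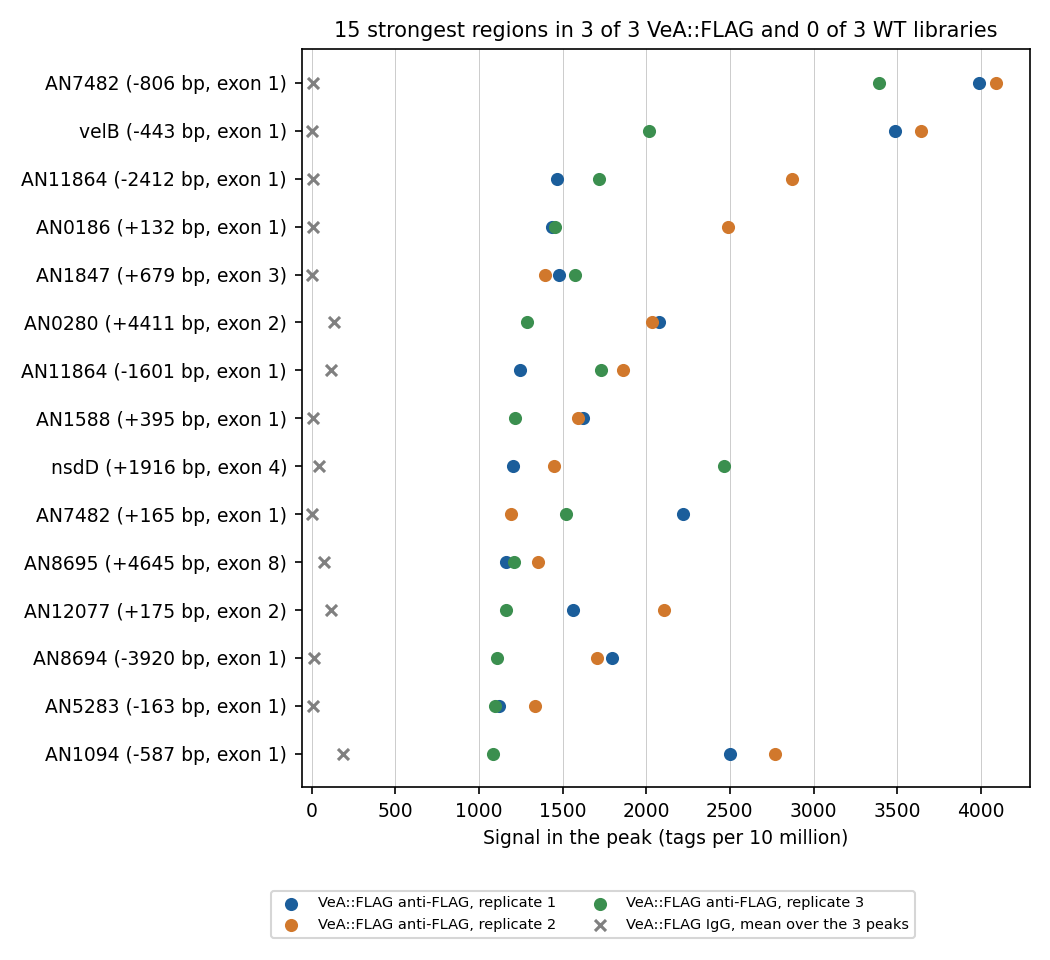
Anti-FLAG signal (scaled tags, x axis) of the 3 VeA::FLAG libraries in the 15 regions with the highest lowest signal, labelled by nearest gene and distance of the region from an exon start (negative upstream); crosses give the mean IgG signal of the VeA::FLAG strain in the same peaks. All anti-FLAG points lie at 1085 or above, and all IgG points at 187.73 or below.

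At the other end of the order, the 5 regions with the lowest values were nearest to AN6061, AN7842, AN7979, AN6840 and AN0972. Their lowest signals were 103.02 to 123.62, and 103.02 in replicate 3 stands for 15 tags. Replicates of these weak regions differed widely, for example 523.67, 116.21 and 216.34 at AN6840. Over all 427 regions the median signals were 459, 491 and 405 in replicates 1, 2 and 3, the ratio of the highest to the lowest library had a median of 1.67 and a maximum of 5.14, and it was under 2 in 70.7% of them. Replicate 3 gave the lowest value in 203 regions, replicate 1 in 130 and replicate 2 in 94. Across regions, the Pearson correlation of log2 signal between libraries was 0.667 to 0.758, a description over 427 regions that share their selection. The regions held 2.14% to 2.62% of the tags of each library and between 56 and 61 of its 100 strongest peaks.

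A set of 27 regions was just outside the rule, with a peak in 3 of 3 VeA::FLAG libraries and in 1 WT library, which was replicate 1 in 11 cases and replicate 2 in 16. Some were as strong as the regions inside. At AN0578, 323 bp upstream of exon 1, the VeA::FLAG signals were 2592, 3893 and 3255 and the only WT peak, in replicate 2, had 412.88. At AN0010 they were 1811, 1770 and 1487 against 246.43 in WT replicate 1. The WT signal was below the lowest VeA::FLAG signal in 18 of the 27. The set also held the regions upstream of nudA, the dynein heavy chain gene, and of somA.

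The 8 regions with peaks in 3 of 3 WT and 0 of 3 VeA::FLAG libraries had another character. They were nearest to AN5944, AN5895, AN3545 (2 regions), AN4329, the tRNA gene tS(AGA)1, AN12258 and AN5343, and their WT signals reached 6970, 27540 and 61253 in replicates 1, 2 and 3 at AN5895. In each of the 8 the IgG library of the VeA::FLAG strain had more signal (871.02 to 53922.11) than that of WT, and 7 of them lay within 100 bp of a LaeA::FLAG peak. The part of this IgG signal in the missing VeA::FLAG calls was not tested.

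The position of the 427 regions against genes was examined next, since the rule did not use it. The nearest start was that of exon 1 in 345 regions (80.8%, 95% Wilson interval 76.8 to 84.3), compared with 73.1% of regions called in 2 of 3 VeA::FLAG libraries, 53.3% of those called in 1 of 3, 54.5% of all regions and 39.3% of the regions called only in WT. The study looked for targets up to 1.5 kb upstream of what it calls the translation start site. Up to 1.5 kb upstream of an exon 1 start, as measured here, lay 284 regions (66.5%, 61.9 to 70.8). The corresponding shares were 55.1% for 2 of 3, 34.5% for 1 of 3 and 21.1% for WT-only regions. Of the 1796 WT-only regions, 1528 were called in WT replicate 2 alone, with shares of 37.6% for exon 1 and 19.8% for the window. The WT-only shares by position thus rest mainly on that library. The intervals cover counting error only. These 284 regions belong to 280 genes, 2.91% of the genes named in the lists. The share was thus higher with each further VeA::FLAG library that called a region, as a description, since neighbouring regions of a chromosome are not independent.

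Within the upstream window most regions were close to the gene. Of the 299 regions upstream of an exon 1 start, 50 lay within 100 bp, 93 more within 250 bp, 54 more within 500 bp, 51 more within 1 kb, 36 more within 1.5 kb and 15 beyond, and the median was 269 bp. Between 100 and 250 bp upstream lay 21.8% of the regions found in 3 of 3 libraries, 14.0% of those in 2 of 3, 8.59% of those in 1 of 3 and 4.01% of the WT-only ones. By contrast, 1 to 500 bp downstream of the start the shares were 9.13%, 12.8%, 12.6% and 9.02%. Intergenic annotation was given to 55 regions (12.9%) against 5.88% of all regions, and exonic annotation to 4 (0.94%) against 6.61%. Intergenic regions made up 9 of the weakest 143 regions, 18 of the middle 142 and 28 of the strongest 142, a description in which signal and position were both taken from the same libraries.

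**Figure D2:**
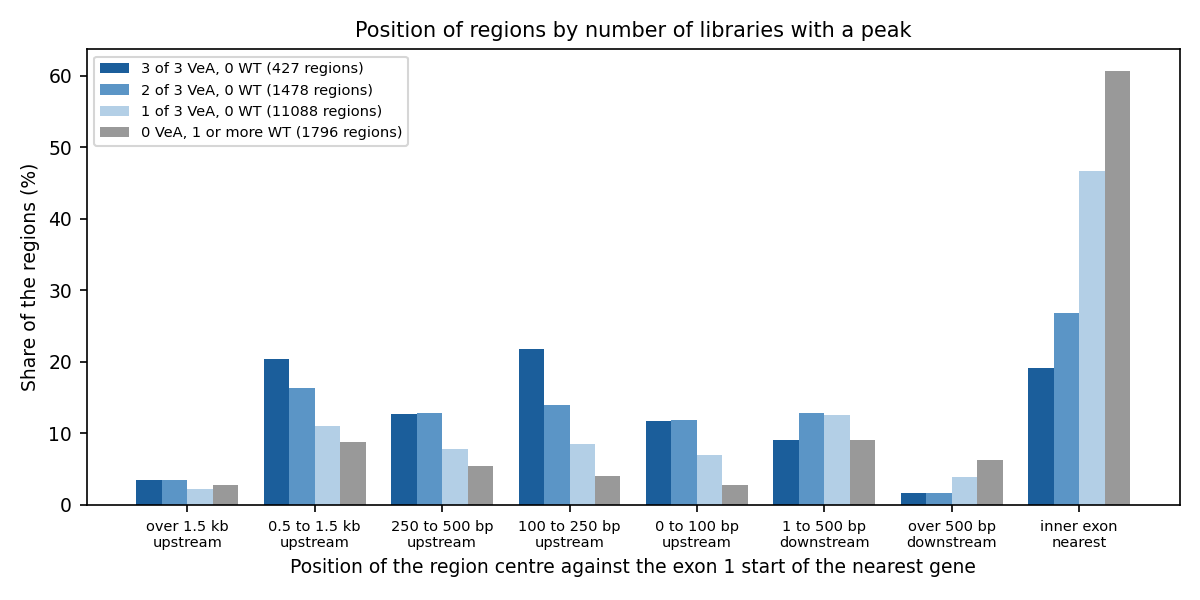
Share of regions (%, y axis) by position of the region centre against the exon 1 start of the nearest gene, or with an inner exon nearest (last group), for regions with peaks in 3, 2 or 1 of 3 VeA::FLAG libraries and no WT library, and for regions with WT peaks only. Inner exons were nearest for 19.2% of the regions called in 3 of 3 VeA::FLAG libraries and for 60.7% of the WT-only regions. WT replicate 2 alone called 1528 of the 1796 WT-only regions.

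Library by library, 6 properties of the complete peak lists were compared between strains. Peaks centred up to 0.5 kb upstream of an exon 1 start made up 28.6%, 28.5% and 28.5% of the VeA::FLAG lists and 23.1%, 14.3% and 16.4% of the WT lists. The groups did not overlap, with means of 28.5% ± 0.059 and 17.9% ± 4.63 (SD, n = 3 each; exact two-sided permutation test, p = 0.1, adjusted p = 0.12). A second peak of the same list within 1 kb was found for 20.2%, 29.8% and 31.4% of VeA::FLAG peaks and 4.48%, 7.16% and 0% of WT peaks (exact two-sided permutation test, p = 0.1, adjusted p = 0.12) and the difference was 17.7 percentage points among the 134 top-scoring peaks of each list. Peaks over 1.5 kb from any start made up 5.98% ± 0.37 and 11.6% ± 3.78 (SD, n = 3 each; exact two-sided permutation test, p = 0.1), but among those top-scoring peaks the difference turned to 3.98 percentage points higher in VeA::FLAG. Peaks within 100 kb of a chromosome end made up 3.9% ± 0.067 and 9.6% ± 8.49 (SD, n = 3 each; exact two-sided permutation test, p = 0.1), but WT replicate 1 carried this difference, with 19.4% against 4.42% and 4.98% in the other WT libraries. Without it the difference was -0.80 in place of -5.70 percentage points, and among the 134 top-scoring peaks of each list the groups overlapped (exact p = 0.7). Peaks with 0 IgG tags made up 46.7%, 54.1% and 56.2% of the VeA::FLAG lists and 19.4%, 14.7% and 5.97% of the WT lists, which compares 1 IgG library with 1 other and carries no test. The share of peaks with exon 1 nearest overlapped (59.7% ± 0.75 against 49.4% ± 11.6, SD, n = 3 each; exact p = 0.4), with WT replicate 1 at 62.7% above every VeA::FLAG library. Among the 134 top-scoring peaks of each list that difference was 24.4 in place of 10.3 percentage points and the groups did not overlap (exact p = 0.1). With 3 libraries against 3 the smallest p is 0.1, and after Benjamini-Hochberg adjustment over the 6 properties 0.12, so no property could pass 0.05.

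Genes of development, light, nutrient and signalling regulation were then looked up in lists of 190 symbols, of which 69 could be matched to genes in the peak files. A region called in 3 of 3 VeA::FLAG and 0 of 3 WT libraries was nearest to 9 of the 69 (13.0%), compared with 4.3% of all genes named in the lists and 7.07% of the 721 genes with a symbol. For regions up to 1.5 kb upstream of exon 1 it was 7 of 69 (10.1%), compared with 2.91% and 5.83%. With regions in at least 2 of 3 VeA::FLAG and 0 of 3 WT libraries, at any position, it was 25 of 69 (36.2%), compared with 18.0% and 25.5%. The lists were chosen with earlier results of these data known, so the counts are a description.

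In the velvet list 2 of 5 matched genes had such a region, velB as given above and veA itself. The veA region lay 1237 bp upstream of exon 1 (chromosome VIII, 1670676 to 1670882) with signals of 731, 903 and 670, all 3 close together. Of the other veA regions, 2 were called in 2 of 3 VeA::FLAG libraries, at 477 bp upstream with 1693 and 1205 in replicates 2 and 3, and at 1975 bp upstream with 1249 and 1049 in replicates 1 and 2. At 646 bp upstream, replicate 1 had a peak of 1044 whose centre was over 100 bp from those of the other replicates. Every library thus had 2 or 3 peaks upstream of veA, but their centres did not always chain. The nuclear importer gene kapA had a region within exon 1 in replicates 1 and 2 (99.5 and 269). The laeA gene had a region 354 bp upstream in replicates 1 and 3 (521 and 577) and a neighbouring one at 524 bp in replicate 2 (988). At vosA, the velvet gene of spore viability, a region 161 bp after the exon 1 start had peaks in VeA::FLAG replicates 1 and 2 (298 and 190) and also in WT replicate 2 (272), so the strains could not be separated there.

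Among regulators of asexual development 1 of 11 genes had a region, flbC, a zinc finger activator acting upstream of conidiation. It lay 207 bp upstream of exon 1 (chromosome VII, 3880109 to 3880311) and the signals were 810, 1191 and 752. Replicate 2 was the highest, and no LaeA::FLAG peak lay within 100 bp. The regulator flbB and the spore maturation gene wetA had regions in 2 of 3 VeA::FLAG libraries, 473 and 1448 bp upstream. At flbD, a peak 2588 bp upstream was called in WT replicates 2 and 3 (615 and 4629) and in no VeA::FLAG library.

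In the sexual list nsdD was the 1 of 5 genes with a region, and steA and esdC were reached in 2 of 3 VeA::FLAG libraries, at 313 bp (620 and 898) and 189 bp (474 and 473) upstream. For light, the red light receptor gene fphA, a phytochrome, was 1 of 3 with a region, 205 bp upstream of exon 1 (chromosome VII, 145700 to 145902). Its signals of 389, 1814 and 1284 differed more between replicates than those of most regions, replicate 1 being the low one. The light response genes lreA and lreB had peaks in single VeA::FLAG libraries only.

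Among 9 signalling genes, sakA, a stress-activated MAP kinase gene, had a region 72 bp after its exon 1 start (579, 383 and 271), whereas mpkB and mpkC were reached in 2 of 3 libraries. Of 15 genes in the nutrient list 2 had a region. The deubiquitinase gene creB of carbon catabolite repression gave 550, 1141 and 649 at 923 bp upstream, with a WT replicate 2 peak of 228 nearby, at 612 bp upstream, and sreA, a GATA repressor of iron uptake, gave 541, 710 and 494 at 221 bp upstream. In 7 more nutrient genes, areA, pacC, cpcA, facB, xlnR, niiA and niaD, the best region was called in 2 of 3 VeA::FLAG libraries. The chromatin list held 1 of 6, the corepressor gene rcoA, with 287, 375 and 247 at 94 bp upstream, the weakest of the 9. In exon 1 of rcoA, 210 bp after its start, WT replicate 2 had a peak of 325, above the signals of VeA::FLAG replicates 1 and 3. No matched gene of the peptide (2 genes), pigment and hydrophobin (4), oxidative stress (1), cell wall (6) or glycolysis (2) lists had one, and the polyketide and psi factor symbols could not be matched to the table.

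**Figure D3:**
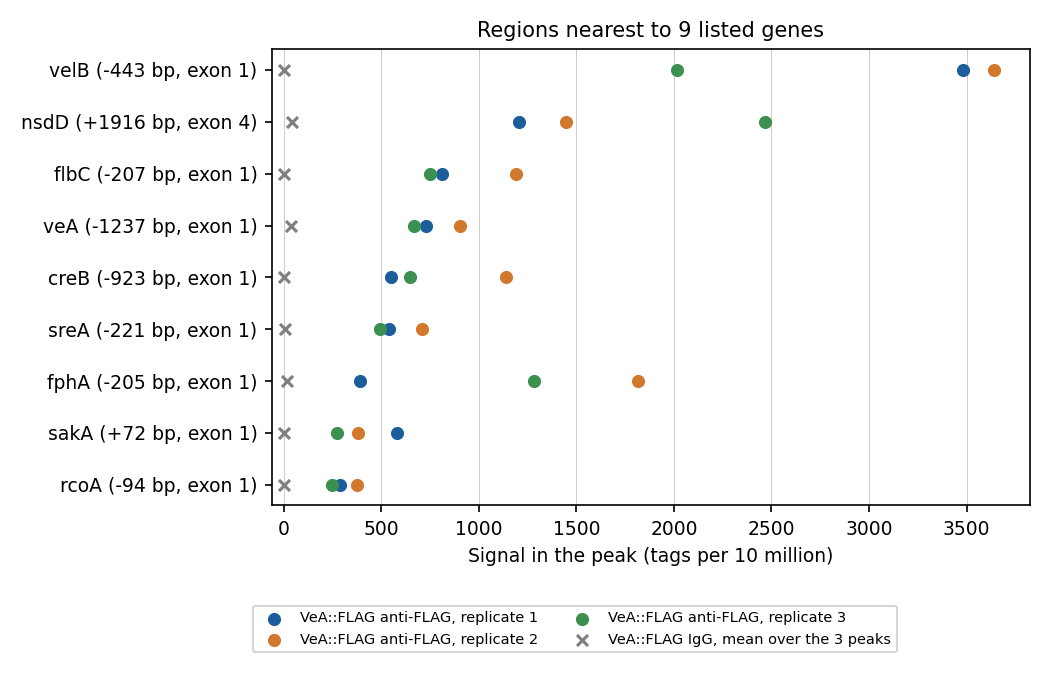
Anti-FLAG signal (scaled tags, x axis) of the 3 VeA::FLAG libraries in the regions nearest to the 9 listed genes, with distance from an exon start; crosses give the mean IgG signal of the VeA::FLAG strain in the same peaks. velB and nsdD stand above the other 7 genes in their lowest libraries, and rcoA, with 247 to 375, is the lowest.

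Other genes with a symbol were named after their values had been seen. In all, 51 of the regions had a nearest gene with a symbol, 42 of them up to 1.5 kb upstream of exon 1. Of the 51, 5 carry names of cell wall enzymes, picked after the fact, while the cell wall list had 0 of 6 genes with a region. Signals were 854, 993 and 742 at bgt2 (159 bp upstream), 714, 629 and 628 at bgt3 (608 bp upstream) and 380, 383 and 350 at gel2 (117 bp upstream), whose names stand for beta-1,3-glucan-remodelling transferases in Aspergillus fumigatus. Upstream of ags1, named for alpha-glucan synthesis, they were 1305, 864 and 519, and at agd3, which in Aspergillus fumigatus deacetylates a cell wall polysaccharide, 1147, 718 and 556. In bgt2, bgt3 and gel2 the libraries were close to each other, while in ags1 and agd3 they fell in the same order.

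Some signalling genes outside the signalling list, which had 1 of 9 genes with a region and 0 of 9 with one upstream, were picked in the same way. The G protein-coupled receptor genes gprD (427, 914 and 587 at 236 bp upstream), gprM (960, 483 and 350 at 1009 bp upstream) and the pheromone receptor gene preB (240, 306 and 240, within the gene, 750 bp after its start) each had a region. The Ras-type GTPase gene rasB gave 658, 1328 and 512 at 793 bp upstream. Of the phosphorelay proteins, the histidine kinase gene tcsC gave 272, 370 and 306 and the response regulator gene skn7 gave 445, 301 and 405. The lowest signals of tcsC and skn7, 272 and 301, were below the median lowest signal of 337. Chromatin genes included dot1, a histone methyltransferase gene (796, 555 and 886 at 205 bp upstream), and asf1, a histone chaperone gene (281, 203 and 213 at 52 bp upstream). The amidase regulator amdX had 737, 687 and 553 at 617 bp upstream.

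For 13 genes, 2 regions had the same nearest gene. Besides AN7482 and AN11864 these were AN12030, AN2042, AN6116, AN0278, AN5134, AN0857, AN12054, AN4148, AN2974, AN10407 and AN12279. At AN12030 a region 122 bp upstream of exon 1 had 1211, 895 and 1693 and another near exon 2 had 1273, 2042 and 1010. At AN2042 regions 267 and 864 bp upstream had 1308, 1490 and 790, and 968, 803 and 838. Of these 26 regions 9 were intergenic, and all pairs but that of AN12279 lay within 1 kb of each other. Of the 427 regions, 15 neighbouring pairs lay within 1 kb. Among the nuclear chromosomes, density ran from 9.4 regions per Mb on chromosome V to 15.9 on chromosome III. Regions called in 1 of 3 VeA::FLAG libraries had the same extremes, with 326.4 per Mb on V and 379.5 on III.

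Whether the same places were called with another tagged protein was examined with the 3 LaeA::FLAG libraries, which the rule did not use. A LaeA::FLAG peak centre lay within 100 bp of 201 of the 427 regions (47.1%, 95% Wilson interval 42.4 to 51.8), against 20.3% of regions called in 2 of 3 VeA::FLAG libraries, 7.17% of those in 1 of 3 and 7.46% of the 1796 regions called only in WT (3.01% of those called in WT replicate 2 alone). Of the 27 regions in 3 of 3 VeA::FLAG libraries with a WT peak, 15 (55.6%) had one. By LaeA::FLAG library the numbers were 111, 138 and 70, and 32 regions had peaks in all 3. The share without LaeA::FLAG replicate 1, 2 or 3 was between 33.0% and 44.3%. The order over 1, 2 and 3 VeA::FLAG libraries was the same in each of these. The antibody is common to both tagged strains, every strain has its own IgG control, and the regions are not independent, so these shares carry no test.

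By signal, the share near a LaeA::FLAG peak was higher in the stronger VeA::FLAG regions, which is given without a test. Such peaks lay near 35 of the weakest 143 regions (24.5%), 66 of the middle 142 (46.5%) and 100 of the strongest 142 (70.4%), and near all of the 15 strongest. With all 3 LaeA::FLAG libraries, the strongest were the region 806 bp upstream of AN7482, both regions of AN11864, and those of AN1588 and AN12077. The velB region was called in LaeA::FLAG replicates 2 and 3, and the veA region 1237 bp upstream likewise in 2 libraries. The regions of flbC, sakA and rcoA had no LaeA::FLAG peak within 100 bp. Intergenic regions were near a LaeA::FLAG peak in 34 of 55 cases, and those up to 1.5 kb upstream of exon 1 in 128 of 284.

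**Figure D4:**
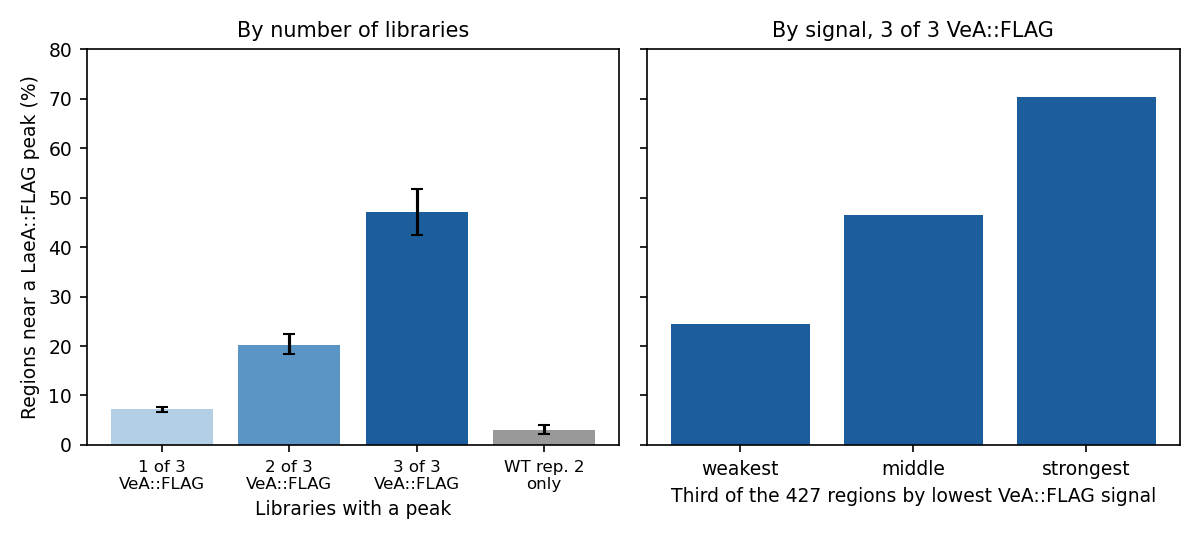
Left, share of regions (%, y axis) with a LaeA::FLAG peak centre within 100 bp, for regions called in 1, 2 or 3 of 3 VeA::FLAG libraries and in WT replicate 2 only (7.46% for all WT-only regions, not drawn), with 95% Wilson intervals. Right, the same share in the weakest, middle and strongest part (142 or 143 regions each) of the 427 regions by lowest VeA::FLAG signal, from 24.5% to 70.4%.

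The control signal at the 427 regions was read from the IgG libraries, 1 per strain and therefore without replicates. In the VeA::FLAG peaks themselves the IgG signal of the same strain, averaged over the 3 peaks of a region, had a median of 7.16 and a maximum of 187.73, and it was 0 in 147 regions. A low IgG value in this library is part of how a peak was called. The IgG libraries of all 3 strains were given over a common set of merged regions, which are wider than the peaks (median 487 bp at these 427), so their values can be compared with each other and not with the peak signals. Over these the median IgG signal was 59.7 in the VeA::FLAG strain, 205 in the LaeA::FLAG strain and 201 in WT, and it was 0 in 74, 1 and 5 regions. Over all merged regions the medians were 40.6, 92.4 and 77.2, so the VeA::FLAG strain had the lowest IgG signal there too. Summed over the merged region, its median was higher at the 427 regions than at 2 of 3 (43.0) or 1 of 3 (19.1) VeA::FLAG regions. It was 0 in 17.3% of the 427 against 33.4% of all regions. Merged regions differ in width, and these values depend on it. Per kb of merged region, the VeA::FLAG strain had medians of 131 at the 427 regions, 101 at 2 of 3 and 76.7 at 1 of 3. Over all merged regions its median was 156 per kb, above that at the 427. WT IgG was higher than VeA::FLAG IgG in 360 of the 427 (84.3%), compared with 75.3% of the regions called in 1 of 3 VeA::FLAG libraries and 39.6% of those called only in WT. WT peaks were set beside the WT IgG library, so a low value there is part of how WT-only regions were called. These shares follow in part from the calling and carry no test.

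Single genes showed the same range. At velB the merged region had IgG signals of 141, 168 and 115 in the VeA::FLAG, LaeA::FLAG and WT strains, and at veA 45.3, 51.4 and 26.4, so that the 3 strains were alike. At AN7482 upstream they were 107, 214 and 361, and at ags1 14.3, 339 and 687, with the VeA::FLAG strain the lowest. At bgt3, rasB and sakA no tag was recorded in the VeA::FLAG IgG library, against 226, 205 and 401 in that of WT. The part of this difference between IgG libraries in the calls was not tested.

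**Figure D5:**
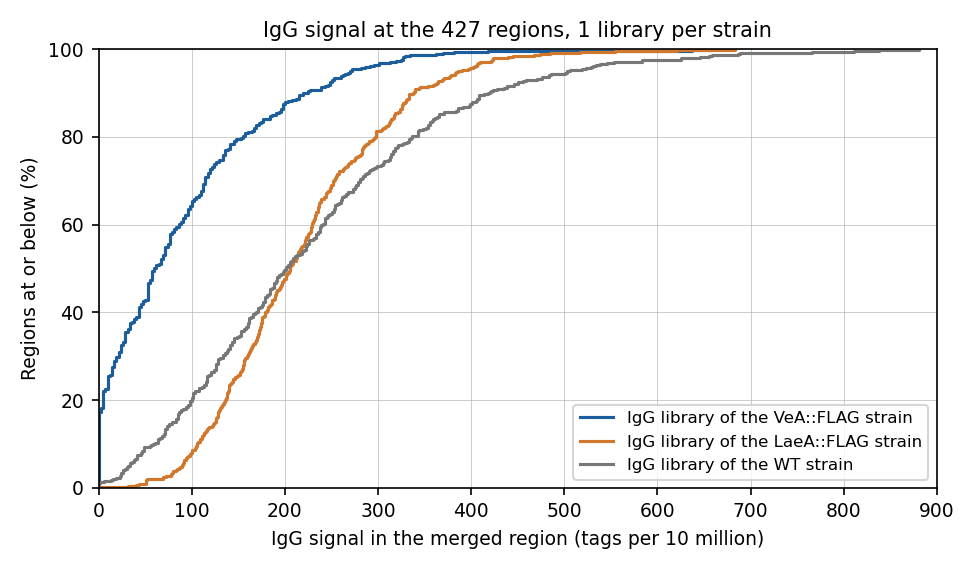
Cumulative share of the 427 regions (%, y axis) at or below a given IgG signal in the merged region (scaled tags, x axis), for the IgG library of each strain. The curve of the VeA::FLAG strain, with a median of 59.7, lies to the left of those of LaeA::FLAG (205) and WT (201).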

How the data were processed

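The deposited files are annotated peak lists, 1 per anti-FLAG library, and merged regions with IgG values. Per the study's methods the authors mapped reads with bowtie2 and called peaks with HOMER 4.11 (over 2-fold, P under 0.001). By their columns, the lists set each strain beside its single IgG library. The signal deposited by the authors is tags per peak scaled to a total of 10000000, and a HOMER peak score deposited by the authors was used only to rank peaks. No model for counts was used, since values step by less than 1 tag.

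Regions, nearest genes (by the lists' own nearest start, exon number and distance), shares and Wilson intervals at 95% were calculated in Python 3.11.15 with SciPy 1.17.1, after the chaining and the permutation test had been tested on simulated data. Gene and distance of a region are those of its middle VeA::FLAG peak, which matters in 27 regions whose peaks name 2 genes. Gene symbols came from a RefSeq table of ASM1142v1, used for names only, which matched 8878 of 9636 identifiers (92.1%). Named genes were the 15 strongest and 5 weakest regions, listed genes, genes with 2 regions, the 8 WT-only regions and the 5 strongest in all LaeA::FLAG libraries, and further genes named outside this rule were chosen after their values were seen. Alternatives were other chaining distances, a 4-fold minimum over IgG, equal list lengths, other promoter windows, a block for the replicate number, and the removal of each library in turn. Members and lists were chosen with earlier results of these data known. Sequence motifs were not analysed here. The motif search and the search by product name that had been planned were not run, because no genome, promoter or product table was used here.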

Additional observations from a re-analysis of the deposited data

How the results depend on the processing

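The number of regions, 427, was 212 with centres chained up to 50 bp and 651 up to 200 bp, and 427 to 1049 when a VeA::FLAG or WT library was left out. The high values came from dropping VeA::FLAG replicate 1 (1049), 2 (770) or 3 (818), where 2 of 2 libraries then sufficed. The share up to 1.5 kb upstream of exon 1 was 59.2% to 66.9% over the libraries left out, and 58.1% and 46.1% with windows of 1 and 0.5 kb. The share near a LaeA::FLAG peak was 31.7% to 47.3% over the libraries left out, 52.5% with VeA::FLAG lists of equal length and 55.4% for regions above the weakest WT replicate 3 peak, a subset chosen after seeing the data. Without single LaeA::FLAG libraries it was 33.0% to 44.3% for 3 of 3, 12.7% to 18.3% for 2 of 3 and 4.17% to 6.62% for 1 of 3 libraries. Listed genes with an upstream region numbered 7, and 20 when 2 of 3 VeA::FLAG libraries sufficed. The 20 were 29.0% of the matched genes, against 10.9% of all genes and 17.3% of genes with a symbol. Over the libraries left out, the difference in peak properties between VeA::FLAG and WT was 5.98 to 16.9 percentage points for exon 1, 8.76 to 13.2 for 0.5 kb upstream, -7.33 to -3.59 for over 1.5 kb from a start, 35.3 to 42.0 for 0 IgG tags, -8.29 to -0.80 for chromosome ends and 21.1 to 26.7 for a second peak. With equal numbers of top-scoring peaks the difference over 1.5 kb from a start turned from -5.63 to 3.98; the cause was not tested. With those peaks the exon 1 difference was 24.4 (exact p = 0.1) and that for chromosome ends -5.47 (exact p = 0.7). Taking the replicate number as a block cannot change a difference in means, which for the exon 1 share is 10.3 points either way. The smallest p of 3 paired differences is 0.25. Same-numbered libraries did not deviate together in all pairs (correlations of 0.609, 0.825 and -0.499 over the 6 properties). So few values cannot show whether they share more than a number, which the sources used here do not say. The differences in points not given here kept their sign, some with another size. In WT replicate 3, where 1 tag is worth 31.3 units, weak signal was not detectable, whereas WT replicate 1, with 7974006 tags, had 134 peaks.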

Other observations

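Of the 427 regions, 410 had a peak of the combined VeA::FLAG list, called on the pooled tags of the 3 libraries, within 100 bp. The other 17 had lowest signals between 177 and 895 and included 6 intergenic ones. A WT peak lay within 1 kb, but not in the region, for 49 of the 427 (11.5%), near the shares of 12.3% for 2 of 3 and 12.1% for 1 of 3 VeA::FLAG libraries. Besides creB and rcoA, the 49 included the regions of AN8695, AN8694 and AN12077 and of bgt3, skn7 and amdX.

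Leaving out a WT library can keep or add regions but remove none, so all 414 genes stayed by the rule. Without WT replicate 1, 2 or 3 they were among 425, 429 and 414 genes. Without VeA::FLAG replicate 1, 2 or 3 the regions were nearest to 992, 736 and 787 genes, of which 368, 367 and 365 were among the 414.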
